A study of Mus musculus with 6 samples.

Results

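The 49 genes described here copy DNA in S phase of the cell cycle, or make the nucleotides and set down the nucleosomes that copying requires. They are a list of gene symbols set by known role, and all 49 were found by Ensembl identifier among the 21666 genes of the deposited count matrix. The counts come from 6 mouse RNA-seq libraries of satellite cells, which are the resident stem cells of skeletal muscle, on day 2 of differentiation. Of these, 3 libraries are from lncMREF KO mice, in which the long noncoding RNA lncMREF is knocked out, and 3 are from WT mice. The series title links lncMREF with muscle differentiation, with Smarca5, a chromatin remodelling enzyme, and with p300, an acetyltransferase. Both groups share the cell type and the time in differentiation, and the sources used here do not give the strain, age or sex of the mice or the kind of KO allele. They also give neither identifier nor position for lncMREF, so its own level was not analysed here and the KO libraries go by their label.

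Replication starts at origins, where the origin recognition complex (ORC), Cdc6 and Cdt1 load the ring-shaped MCM2-7 helicase in G1 phase. In S phase, Cdc45 and the GINS complex switch the helicase on, DNA polymerases copy both strands, and the sliding clamp Pcna, the single-strand binding protein RPA, Fen1 and Lig1 complete the lagging strand. Satellite cells that enter differentiation normally leave the cell cycle, and many of these genes, which E2F transcription factors drive in cycling cells, are then turned down.

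Matrix totals ran from 17919826 to 28430678 counts per library, and single members held from 24 counts (Orc1) to 4074 counts (Rrm1) in a library. At least 100 counts were present in every library for 34 members. Levels below are given in CPM, counts scaled to a common library total after TMM correction, which allows for a few abundant genes taking up sequencing depth. Whether replicates are separate animals or separate cultures is not in the labels, and all p-values therefore reflect the spread among these 6 libraries, which may be technical. All 12 myogenic markers listed had counts in every library, among them Pax7 of the satellite cell and Myog of the differentiating myoblast. Of these 12, 10 were lower and 1 (Pax7) was higher in KO, and their summed level was 5208 to 5544 CPM in KO libraries, against 21547 to 22246 CPM in WT libraries. Markers of other cell types moved as well. Macrophage and leukocyte markers were higher in KO for 12 of 14 and summed to 374 to 387 CPM, against 115 to 126 CPM in WT. Lyz2 was the largest part of that sum, with a mean of 238 CPM in KO and 82 CPM in WT. Schwann and glial markers were higher for 7 and lower for 1 of 9 tested and summed to 996 to 1016 CPM in KO, against 499 to 501 CPM in WT. Ngfr was the largest part in KO, with a mean of 519 CPM, against 130 CPM in WT. Erbb3, the marker that was lower in KO, was the largest part in WT, with a mean of 244 CPM, against 121 CPM in KO. Endothelial markers were lower for 12 of 12 (11 with scaling by total count alone) and summed to 201 to 207 CPM in KO, against 478 to 492 CPM in WT. Fibro-adipogenic markers were higher for 4 and lower for 3 of 8 tested and summed to 7515 to 8053 CPM in KO, against 6958 to 7106 CPM in WT. Nearly all of that sum was Col1a1, at 7240 to 7788 CPM in KO and 6622 to 6777 CPM in WT. The next most abundant, Dcn, was lower in KO, with a mean of 143 CPM, against 216 CPM in WT. No marker was at 0 in a whole group, and Tcf21 was not analysed here. Xist, the RNA of the inactive X chromosome, was at 417 to 478 CPM in KO libraries and 152 to 155 CPM in WT libraries, while 4 Y-linked genes summed to 82.7 to 91.8 CPM in KO and 121 to 132 CPM in WT. Mitochondrially encoded genes took 2.07% to 2.3% of counts in KO and 3.97% to 4.18% in WT. The part of these differences in the results below was not tested. In bulk libraries, more cells of a type and more RNA per cell cannot be told apart.

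Nearly the whole replication programme was higher in KO cells after 2 days of differentiation. By edgeR's quasi-likelihood test, with a gene called at an adjusted p under 0.05, 46 of the 49 genes rose, 2 fell (Orc2 and Orc4) and 1 (Orc3) did not pass the test. Over all 15518 genes tested, 33.7% were called higher and 33.0% were called lower in KO. Higher calls were thus 50.5% of all calls, and with scaling by total count alone they were 66.1%, with a median shift of all genes to 0.19 on the log2 scale, against 0.02. For 29 members the rise was over 2-fold, against 8.56% of all genes tested, and no member fell by over 2-fold. Every KO library was above every WT library for 46 members, against 35.3% of all genes tested. Every KO library was below every WT library for 2 members, and for 5287 of the 15518 genes tested. The groups overlapped for 4746 of the 15518, so a lack of overlap was common in these libraries. The median log2 fold change of KO over WT was 1.15 for the members, with quartiles of 0.77 and 1.59, and 0.02 for all genes tested, with quartiles of -0.36 and 0.39. Summed over the 49 genes, the level was 1546 ± 13.5 CPM in KO and 811 ± 12.9 CPM in WT (SD, n = 3 each), a ratio of 1.91. Exceptions sat in 1 complex, ORC, whose subunits Orc2, Orc3 and Orc4 had log2 fold changes of -0.15, -0.09 and -0.28. When libraries were scaled by their total count alone, the first 2 of these turned to 0.02 and 0.08. Orc4 was then at -0.11 and was no longer called.

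**Figure D1:**
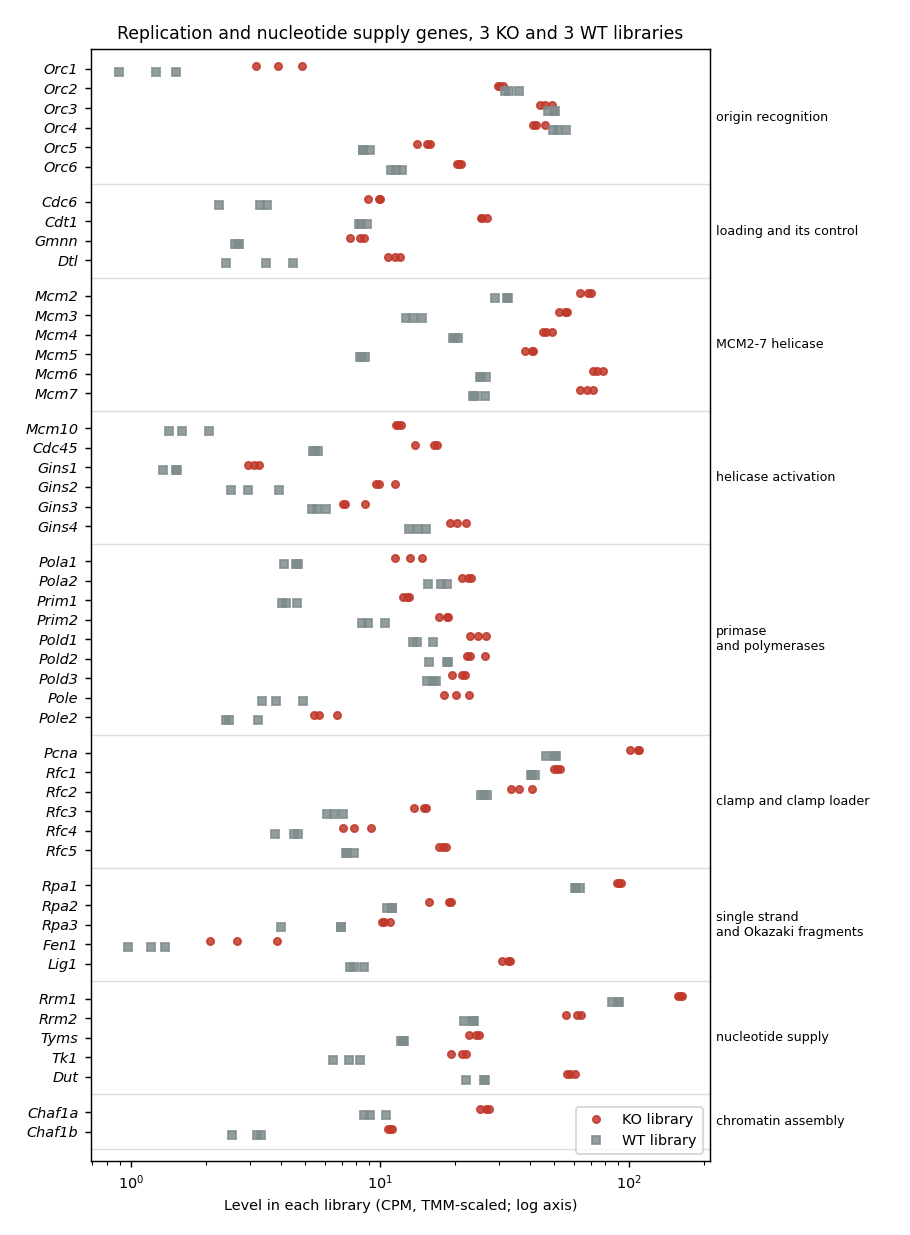
Level of each of the 49 genes (CPM, TMM-scaled, log axis) in the 3 KO libraries (red circles) and the 3 WT libraries (grey squares), grouped by role. The KO points lie to the right of the WT points for 46 genes, overlap them for Orc3, and lie to the left for Orc2 and Orc4.

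Short words that E2F factors bind were looked for in promoter sequences from RefSeq (GRCm38.p6), each window running from 250 bases before to 50 bases after the annotated start. By symbol, 41 of the 49 members matched an entry, with 49 windows in all; Gmnn, Mcm4, Gins1, Gins2, Gins4, Prim2, Pole and Rfc2 did not. The E2F words searched, on both strands, were TTTCCCGC, TTTCGCGC, TTTGCCGC and TTTGGCGC. At least 1 was present in 16 of the 49 member windows (32.7%), in 744 of all 32851 windows of this length (2.26%) and in 518 of the 14214 windows of genes tested here (3.64%). The CCAAT box, bound by the factor NF-Y, was in 27 member windows (55.1%), against 37.4% of all windows. The CHR element TTTGAA, which the DREAM and B-Myb complexes use at many mitosis genes, was in 5 member windows (10.2%), against 17.9% of all windows and 12% of those of genes tested. Of 22 E2F matches, 15 began within 100 bases before the start or after it, 4 overlapped another E2F match, and 1 overlapped a CCAAT match. These matches describe letters and were not tested for binding. The 5 windows below show the helicase subunit with the largest rise (Mcm5), the window with 3 E2F matches (Mcm6), the helicase subunit with the smallest rise (Mcm2), and an ORC subunit that rose (Orc1) beside 1 that was not called (Orc3). They lie at chr8:75109259-75109558 on the plus strand (Mcm5), chr1:128359656-128359955 on the minus strand (Mcm6), chr6:88898731-88899030 on the minus strand (Mcm2), chr4:108579204-108579503 on the plus strand (Orc1) and chr4:34614893-34615192 on the minus strand (Orc3). Each is written 5′ to 3′ on the strand of its gene, and capitals mark E2F words, CCAAT and TTTGAA on either strand, so that ATTGG is CCAAT read on the other strand.
Mcm5: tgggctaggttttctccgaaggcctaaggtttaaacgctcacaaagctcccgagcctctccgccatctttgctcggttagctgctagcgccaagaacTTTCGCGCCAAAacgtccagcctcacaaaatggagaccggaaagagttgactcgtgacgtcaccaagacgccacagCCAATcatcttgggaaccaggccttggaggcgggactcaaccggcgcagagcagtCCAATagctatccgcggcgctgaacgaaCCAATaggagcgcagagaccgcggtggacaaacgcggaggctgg
Mcm6: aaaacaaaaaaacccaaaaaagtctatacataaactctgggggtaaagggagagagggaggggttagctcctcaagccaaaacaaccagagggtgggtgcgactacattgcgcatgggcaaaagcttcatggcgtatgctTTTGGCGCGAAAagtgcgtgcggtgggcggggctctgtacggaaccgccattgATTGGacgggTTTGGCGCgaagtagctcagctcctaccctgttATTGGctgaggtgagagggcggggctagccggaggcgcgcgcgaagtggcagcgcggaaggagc
Mcm2: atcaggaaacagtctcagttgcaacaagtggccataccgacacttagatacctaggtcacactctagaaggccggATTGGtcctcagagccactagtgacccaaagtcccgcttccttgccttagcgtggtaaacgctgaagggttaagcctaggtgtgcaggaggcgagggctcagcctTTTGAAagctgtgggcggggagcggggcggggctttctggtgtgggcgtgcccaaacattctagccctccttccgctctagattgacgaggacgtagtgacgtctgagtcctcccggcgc
Orc1: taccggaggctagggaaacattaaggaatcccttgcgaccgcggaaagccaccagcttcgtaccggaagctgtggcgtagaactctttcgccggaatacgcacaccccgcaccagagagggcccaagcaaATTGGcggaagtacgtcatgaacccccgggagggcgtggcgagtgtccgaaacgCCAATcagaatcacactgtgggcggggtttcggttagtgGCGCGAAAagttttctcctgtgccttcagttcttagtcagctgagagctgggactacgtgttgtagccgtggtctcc
Orc3: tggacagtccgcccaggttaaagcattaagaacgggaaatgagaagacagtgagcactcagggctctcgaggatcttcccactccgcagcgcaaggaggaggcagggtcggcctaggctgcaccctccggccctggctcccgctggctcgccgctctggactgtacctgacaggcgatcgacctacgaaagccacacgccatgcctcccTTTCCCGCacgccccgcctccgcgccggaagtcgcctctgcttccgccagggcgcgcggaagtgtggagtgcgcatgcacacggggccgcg
The windows of Mcm5, Mcm6 and Orc1 hold 2, 3 and 1 E2F matches, that of Mcm2 holds none, and that of Orc3, whose level was not called as changed, holds 1. The first capital run in Mcm5 and in Mcm6 is a pair of overlapping E2F words on opposite strands. Members with an E2F word had a median log2 fold change of 1.56 (16 genes, -0.09 to 2.24), and those with a window and no such word had 0.95 (25 genes, -0.28 to 2.81). Mcm10, whose rise was the largest of all 49, was among those with no such word, and the 2 members that fell, Orc2 and Orc4, were too. The Mcm10 window ends on TTTGGCG, which is the searched word TTTGGCGC without its last letter. Whether the word is completed beyond the window edge was not looked at. The 8 members with no entry had a median of 1.16. No test was made of these medians.

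**Figure D2:**
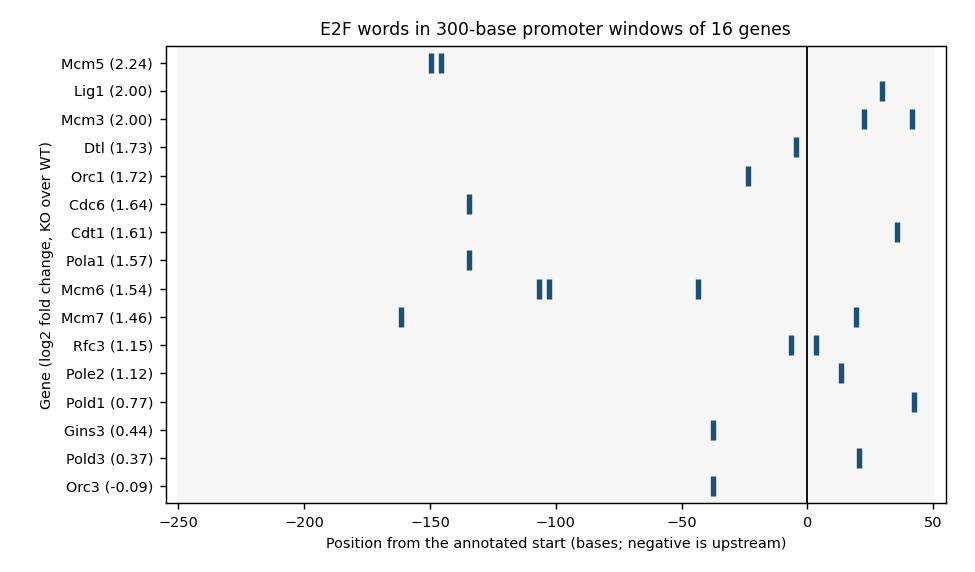
Position of each E2F word (blue ticks, at the middle of the word) in bases from the annotated start, for the 16 genes with at least 1 match in a window of 300 bases. Genes run down the page by log2 fold change of KO over WT, given in brackets, and matches of Mcm5 lie farther upstream than that of Orc1, while Orc3, at the foot with -0.09, also has a match near the start.

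ORC marks the origins, and its subunits divided. Orc1, the subunit whose level swings with the cell cycle in mammals, had 3.90, 4.86 and 3.16 CPM in the KO libraries, against 1.51, 1.26 and 0.896 CPM in the WT libraries. Its gene lies at chr4:108579423-108614833 on the plus strand of mm10, and its log2 fold change was 1.72 (SE 0.23, adjusted p = 4.25e-08, edgeR's quasi-likelihood test), or 3.30-fold. The groups did not overlap, although Orc1 was the member with the lowest counts. Orc6, which completes the complex, had 20.4, 20.7 and 21.03 CPM in KO, against 12.2, 11.5 and 11.1 CPM in WT, and rose by 0.84 on the log2 scale (SE 0.09, adjusted p = 1.28e-10). Orc5, another core subunit, rose by 0.79, with 15.1 ± 0.974 CPM in KO and 8.72 ± 0.349 CPM in WT (SD, n = 3 each). For both, every KO library was above every WT library.

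The other ORC subunits were called lower or not called. Orc4 had 40.9, 45.8 and 42.2 CPM in KO, against 49.2, 55.8 and 52.0 CPM in WT, with every KO library below every WT library. Its log2 fold change was -0.28 (SE 0.06, adjusted p = 0.000155), and the call was lost when libraries were scaled by total count alone (-0.11, adjusted p = 0.11). Orc2 had 29.9, 29.7 and 31.1 CPM in KO, against 36.2, 31.7 and 33.0 CPM in WT. The 3 KO values lay below the 3 WT values by a narrow margin, and the log2 fold change was -0.15 (SE 0.07, adjusted p = 0.0408). Without WT replicate 1, KO replicate 1 or KO replicate 2 the adjusted p of Orc2 was 0.207, 0.0868 and 0.0992, so its call rests on single libraries. Of the exonic bases of Orc2, 29.8% are shared with other genes, the most with Nif3l1 on the other strand, whose log2 fold change was 0.20. Orc3 had 48.8, 45.9 and 43.7 CPM in KO, against 49.9, 47.1 and 50.3 CPM in WT, and the groups overlapped. Its log2 fold change was -0.09 (SE 0.06, adjusted p = 0.185). The log2 ratio of Orc1 to Orc2 was -2.95 ± 0.34 in KO and -4.81 ± 0.34 in WT (SD, n = 3 each), a difference of 1.86. For this and 3 further ratios below, a two-sided exact permutation test of 3 against 3 libraries cannot give a p below 0.1, and it gave that p here (0.133 adjusted over the 4 ratios).

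Cdc6 and Cdt1 bring the helicase to ORC, Gmnn (geminin) inhibits Cdt1, and Dtl is the receptor of the ubiquitin ligase that destroys Cdt1 in S phase. Loader and inhibitors rose together, by 1.61 to 1.73 on the log2 scale. Dtl had 11.96, 10.7 and 11.5 CPM in KO, against 2.40, 4.47 and 3.47 CPM in WT, and its log2 fold change was 1.73 (SE 0.15, adjusted p = 1.02e-11). Cdc6 had 10.01, 8.92 and 9.86 CPM in KO, against 3.52, 2.26 and 3.28 CPM in WT, and its log2 fold change was 1.64 (SE 0.15, adjusted p = 3.54e-12). In both genes the WT libraries varied more, relative to their level, than the KO libraries, and the groups stayed well apart. Cdt1 had 26.8, 25.3 and 25.5 CPM in KO, against 8.81, 8.21 and 8.40 CPM in WT, and its log2 fold change was 1.61 (SE 0.09, adjusted p = 4.31e-18). Gmnn had 8.33, 8.60 and 7.59 CPM in KO, against 2.71, 2.69 and 2.61 CPM in WT, and its log2 fold change was 1.62 (SE 0.15, adjusted p = 5.94e-12). Each group was tight around its mean. The log2 ratio of Cdt1 to Gmnn was 1.66 ± 0.10 in KO and 1.67 ± 0.05 in WT (SD, n = 3 each), and the difference of -0.002 lay within the spread of the libraries (exact permutation p = 1). Leaving out any single library moved that difference between -0.045 and 0.052.

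The MCM2-7 ring unwinds DNA at the fork, and all 6 of its genes rose by over 2-fold, by 1.11 to 2.24 on the log2 scale. Mcm5 had 38.1, 41.1 and 40.5 CPM in KO, against 8.28, 8.69 and 8.43 CPM in WT. Its log2 fold change was 2.24 (SE 0.08, adjusted p = 1.49e-23), or 4.72-fold, at chr8:75109569-75128439 on the plus strand. This was the largest rise of the ring, and the lowest KO library stood far above the highest WT library. Mcm3 had 54.98, 52.0 and 56.4 CPM in KO, against 13.5, 14.7 and 12.7 CPM in WT, and its log2 fold change was 2.00 (SE 0.07, adjusted p = 1.62e-23). Mcm2 had 68.3, 63.5 and 70.2 CPM in KO, against 32.6, 32.3 and 29.0 CPM in WT, and its log2 fold change was 1.11 (SE 0.06, adjusted p = 1.39e-17). The smallest rise of the ring thus still left no overlap between genotypes. Mcm4, Mcm6 and Mcm7 rose by 1.22, 1.54 and 1.46 on the log2 scale.

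Because the ring holds 1 copy of each subunit, levels of its messages were also set side by side per kilobase (kb) of each gene's principal transcript. In KO these ran from 11.8 CPM per kb for Mcm5 to 25.7 CPM per kb for Mcm6, and in WT from 2.50 CPM per kb for Mcm5 to 9.29 CPM per kb for Mcm2. The highest subunit was thus 2.17 times the lowest in KO and 3.71 times the lowest in WT. With the length of all exons in place of the principal transcript, the ratios were 1.65 in KO and 2.63 in WT, and the order of the subunits changed. Per kb of principal transcript, the ratio of highest to lowest subunit was 15.2 in KO and 52.6 in WT for the ORC genes. With the length of all exons it was 7.34 in KO and 24.8 in WT, and the highest ORC subunit changed to Orc6 in KO and Orc2 in WT, against Orc3 in both per principal transcript. For the RFC genes of the clamp loader it was 1.74 in KO and 3.20 in WT per principal transcript, and 2.23 in KO and 4.22 in WT with all exons. For the GINS genes these values were 5.75 in KO and 13.1 in WT, and 7.43 in KO and 13.7 in WT. The ratio was thus smaller in KO than in WT with either length in these complexes, and its size depended on the length used. For the RPA genes it was 1.81 in KO and 2.00 in WT per principal transcript, and 2.72 in KO and 3.01 in WT with all exons. These ratios of group means describe message levels and were not tested.

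**Figure D3:**
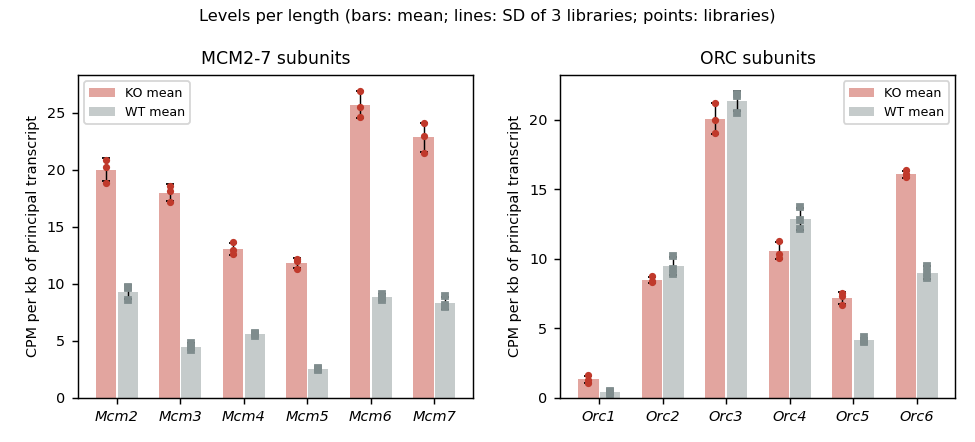
Level per kb of principal transcript (CPM per kb) of the MCM2-7 subunits (left) and ORC subunits (right); red bars are the KO mean, grey bars the WT mean, lines the SD of 3 libraries and points the libraries. KO bars are taller for all 6 MCM genes, with Mcm5 lowest in both groups. Among ORC genes, Orc1, Orc5 and Orc6 are taller in KO, and Orc2, Orc3 and Orc4 are taller in WT by a small margin. With scaling by total count alone, that margin turned round for Orc2 and Orc3, and the call of Orc4 was lost.

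Helicase activation held the largest rise of all 49 genes. Mcm10, a fork protein that takes part in firing the helicase, had 11.8, 11.6 and 12.1 CPM in KO, against 1.42, 2.05 and 1.60 CPM in WT. Its log2 fold change was 2.81 (SE 0.15, adjusted p = 2.54e-18), or 7.04-fold, at chr2:4989714-5012791 on the minus strand. The KO libraries hardly differed from each other, and none came near a WT library. Gins2, a subunit of the GINS complex, had 9.87, 9.60 and 11.5 CPM in KO, against 2.94, 2.53 and 3.92 CPM in WT, and its log2 fold change was 1.69 (SE 0.14, adjusted p = 1.57e-12). Its exons share 67.3% of their bases with other genes, the most with Gse1 on the other strand, whose log2 fold change was -0.37. Gins3 had 7.07, 8.72 and 7.22 CPM in KO, against 5.56, 5.32 and 6.05 CPM in WT, and rose least, by 0.44 (SE 0.13, adjusted p = 0.00309). The remaining genes of the step were Cdc45, the helicase cofactor, at 1.51, Gins1 at 1.09 and Gins4 at 0.54 on the log2 scale, all called higher. Subunits of the same GINS complex thus ranged from 0.44 to 1.69, and whether these changes differ from each other was not tested.

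Primase and polymerase genes rose in 9 of 9, 4 of them by over 2-fold. Pole, the catalytic subunit of polymerase epsilon on the leading strand, had 22.7, 18 and 20.1 CPM in KO, against 3.83, 4.90 and 3.36 CPM in WT. Its log2 fold change was 2.35 (SE 0.12, adjusted p = 1.54e-17), or 5.11-fold, at chr5:110286306-110337474 on the plus strand. Both groups varied among themselves by far less than they lay apart. Prim1, the catalytic primase subunit that makes the RNA primers, had 12.9, 13.1 and 12.4 CPM in KO, against 4.18, 4.63 and 4.03 CPM in WT, and its log2 fold change was 1.59 (SE 0.12, adjusted p = 3.8e-14). Pold3, an accessory subunit of polymerase delta, had 21.9, 21.3 and 19.4 CPM in KO, against 16.2, 16.7 and 15.4 CPM in WT, and its log2 fold change was 0.37 (SE 0.08, adjusted p = 0.000143). Its rise was the smallest of the step, and the groups still did not overlap. Catalytic subunits were not uniform: Pola1 of polymerase alpha rose by 1.57 and Pold1 of polymerase delta by 0.77 on the log2 scale. Among accessory subunits, Pole2 rose by 1.12, Prim2 by 0.96, Pold2 by 0.44 and Pola2 by 0.38. Pole and Pola1 thus had larger log2 fold changes than their partners Pole2 and Pola2.

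Pcna, the sliding clamp that holds polymerases on DNA, had 106 ± 4.93 CPM in KO and 49.3 ± 2.52 CPM in WT (SD, n = 3 each), and its log2 fold change was 1.10 (SE 0.05, adjusted p = 2.09e-19). The RFC complex that opens the clamp rose in all 5 subunits. Rfc5 had 17.9, 18.4 and 17.2 CPM in KO, against 7.39, 7.32 and 7.84 CPM in WT, and its log2 fold change was 1.24 (SE 0.10, adjusted p = 1.13e-13). Rfc3 had 15.04, 13.6 and 15.3 CPM in KO, against 7.08, 6.53 and 6.12 CPM in WT, and its log2 fold change was 1.15 (SE 0.11, adjusted p = 1.04e-11). These small subunits showed no overlap between genotypes. Rfc1, the large subunit, had 51.2, 52.8 and 49.96 CPM in KO, against 41.8, 40.3 and 40.6 CPM in WT, and rose by 0.33 (SE 0.06, adjusted p = 7.03e-06). It had the smallest rise of the 46 members called higher, and its groups did not overlap either. Rfc4 and Rfc2 rose by 0.89 and 0.50 on the log2 scale.

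Lig1 seals the joined Okazaki fragments, Fen1 trims their flaps, and RPA coats the single strand. Lig1 had 30.9, 33.1 and 32.5 CPM in KO, against 8.59, 7.58 and 7.84 CPM in WT, and its log2 fold change was 2.00 (SE 0.08, adjusted p = 3.38e-21). Its genotypes were far apart. Fen1 had 2.67, 2.07 and 3.85 CPM in KO, against 1.20, 1.37 and 0.970 CPM in WT, and its log2 fold change was 1.27 (SE 0.26, adjusted p = 4.62e-05). Fen1 rests on 26 to 73 counts a library, and 84.2% of its exonic bases are shared with other genes, the most with Gm10143 on the other strand. The value of Fen1 is therefore uncertain. Rpa1, the large RPA subunit, had 91.1, 92.8 and 89.0 CPM in KO, against 63.2, 61.0 and 60.3 CPM in WT, and its log2 fold change was 0.57 (SE 0.05, adjusted p = 3.91e-12). Rpa2 and Rpa3 rose by 0.71 and 0.79 on the log2 scale, and in Rpa3 WT replicate 2, at 4.001 CPM, lay below the other WT libraries, at 6.99 and 6.98 CPM.

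Ribonucleotide reductase makes deoxynucleotides, thymidylate synthase (Tyms) and thymidine kinase 1 (Tk1) supply dTMP, and Dut removes dUTP. All 5 of these supply genes rose, 3 by over 2-fold. Tk1 had 21.2, 22.1 and 19.3 CPM in KO, against 7.48, 8.32 and 6.46 CPM in WT, and its log2 fold change was 1.51 (SE 0.10, adjusted p = 1.68e-15). Rrm2, the small reductase subunit made in S phase, had 63.8, 55.5 and 61.7 CPM in KO, against 21.7, 23.6 and 23.9 CPM in WT, and its log2 fold change was 1.39 (SE 0.07, adjusted p = 1.32e-19). Neither gene showed any overlap of KO with WT. Rrm1, the large subunit, had 157.0, 162.2 and 159.9 CPM in KO, against 91.0, 89.8 and 85.1 CPM in WT, and its log2 fold change was 0.85 (SE 0.05, adjusted p = 3.46e-18). The lowest KO library was far above the highest WT library. Dut and Tyms rose by 1.22 and 0.95 on the log2 scale.

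Among relatives of these enzymes that serve cells outside S phase, Rrm2b fell and Tk2 rose. Rrm2b, the p53-induced small reductase subunit, had 14.7, 14.0 and 13.4 CPM in KO, against 20.8, 21.8 and 20.3 CPM in WT, and fell by 0.58 on the log2 scale (SE 0.08, adjusted p = 1.89e-07). The log2 ratio of Rrm2 to Rrm2b was 2.10 ± 0.11 in KO and 0.14 ± 0.09 in WT (SD, n = 3 each). In linear terms there were 3.97 to 4.59 Rrm2 counts for each Rrm2b count in KO and 1.04 to 1.18 in WT, without correction for transcript length. The difference of 1.97 had the smallest p that 3 against 3 libraries allow (exact permutation p = 0.1, adjusted 0.133). Tk2, the mitochondrial thymidine kinase, had 18.1, 20.4 and 19.9 CPM in KO, against 12.9, 12.1 and 13.1 CPM in WT, and rose by 0.61 (SE 0.09, adjusted p = 1.4e-07). The log2 ratio of Tk1 to Tk2 was 0.10 ± 0.14 in KO and -0.78 ± 0.24 in WT (SD, n = 3 each), a difference of 0.88 (exact permutation p = 0.1, adjusted 0.133). Every KO library was above every WT library in both ratios.

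Both listed subunits of chromatin assembly factor CAF-1, which sets histones on new DNA, rose by over 2-fold. Chaf1b had 10.9, 10.8 and 11.2 CPM in KO, against 2.54, 3.21 and 3.32 CPM in WT, and its log2 fold change was 1.85 (SE 0.13, adjusted p = 1.84e-14). Chaf1a had 27.4, 25.2 and 26.6 CPM in KO, against 10.6, 8.63 and 9.11 CPM in WT, and its log2 fold change was 1.48 (SE 0.09, adjusted p = 9.18e-17). Neither overlapped between genotypes. Chaf1a shares 52.5% of its exonic bases with other genes, the most with Ubxn6 on the other strand, whose log2 fold change was 0.08 (adjusted p = 0.386).

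**Figure D4:**
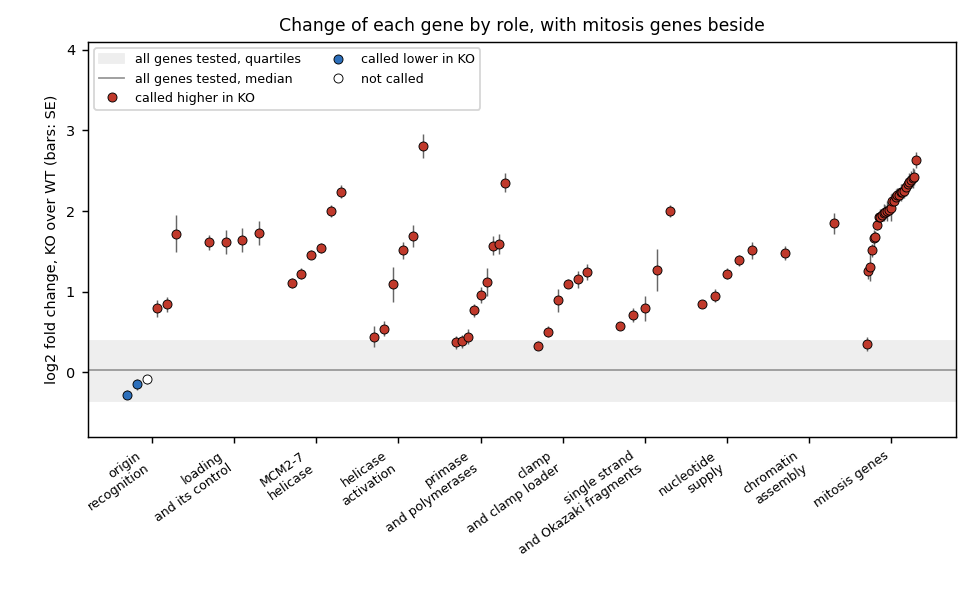
Log2 fold change of KO over WT with its SE for each of the 49 genes by role, and for 30 mitosis genes at the right; red points were called higher, blue lower, open not called, and the grey band spans the quartiles of all genes tested around their median of 0.02. Only ORC holds genes below 0, of which Orc2 and Orc3 turned above 0 with scaling by total count, and the highest points are Mcm10 at 2.81 among the replication genes and Nuf2 at 2.63 among the mitosis genes.

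Of 31 further replication factors listed beside the members, 30 were tested, and 24 rose, 1 fell and 5 (Mcmbp, Pold4, Pole4, Rnaseh2c and Supt16) did not pass the test. With scaling by total count alone 27 rose, none fell and 3 were not called, among them Asf1a at -0.07. Their median log2 fold change was 0.82, and 10 rose by over 2-fold. Ticrr (treslin), which helps Cdc45 onto the helicase, had 9.33, 9.12 and 8.59 CPM in KO, against 1.56, 0.895 and 1.57 CPM in WT, and rose by 2.71 (SE 0.17, adjusted p = 6e-16). Dscc1, part of an alternative clamp loader, had 1.99, 2.79 and 2.37 CPM in KO, against 0.490, 0.421 and 0.448 CPM in WT, and rose by 2.38 (SE 0.30, adjusted p = 1.21e-08). Both genes were well apart between genotypes, and the rise of Ticrr was close in size to that of Mcm10. Counts were low, at 8 to 70 a library for Dscc1 and 17 to 229 for Ticrr, which limits the precision of both rises. The 1 gene that fell was Asf1a, a histone chaperone, with 9.47, 11.4 and 9.17 CPM in KO, against 12.1, 11.9 and 11.7 CPM in WT (log2 fold change -0.24, SE 0.10, adjusted p = 0.0377). That call did not hold when WT replicate 1 (adjusted p = 0.0824), WT replicate 2 (0.0526), KO replicate 1 (0.129) or KO replicate 3 (0.139) was left out. Asf1a shares 48.0% of its exonic bases with other genes, the most with Mcm9. Its paralogue Asf1b, linked to dividing cells, rose 2.83-fold.

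Among 22 further nucleotide genes, 14 rose, 4 fell (Rrm2b, Samhd1, Ctps and Cmpk1) and 4 did not pass the test, with a median log2 fold change of 0.41, and Cmpk1 turned from -0.15 to 0.02 with scaling by total count alone. Only Dck rose by over 2-fold. Dck, the salvage kinase for deoxycytidine, had 21.5, 17.6 and 20.9 CPM in KO, against 9.57, 8.16 and 8.02 CPM in WT, and rose by 1.22 (SE 0.10, adjusted p = 5.55e-13). Samhd1, which breaks deoxynucleotides down, had 46.7, 44.5 and 42.0 CPM in KO, against 59.9, 58.6 and 53.9 CPM in WT, and fell by 0.37 (SE 0.06, adjusted p = 1.84e-06). Its groups did not overlap. The 5 supply genes among the members had a median of 1.22, and the difference between the lists was not tested.

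Mitosis genes, which act later in the same cycle, were listed for comparison. All 30 rose, 29 of them by over 2-fold, with a median log2 fold change of 2.08 (0.35 to 2.63), against a median of 1.15 for the 49 replication and supply genes. The largest rises among them were those of Nuf2, a kinetochore subunit, at 23.8 ± 1.33 CPM in KO and 3.84 ± 0.114 CPM in WT (SD, n = 3 each), and of Ccnb2, a mitotic cyclin, at 25.5 ± 0.936 CPM in KO and 4.75 ± 0.282 CPM in WT. Their log2 fold changes were 2.63 and 2.42. The difference between the lists was not tested. Mcm10, Pole and Mcm5, at 2.81, 2.35 and 2.24, were the members above the median of the mitosis genes, and the other 46 lay below it.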

How the data were processed

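The authors deposited whole-number gene counts under Ensembl identifiers. A matrix of all 6 libraries with 21666 genes was used here, and a table per library was not. Only 5 of the 49 members had a mean there within 0.8 to 1.25 times the matrix mean. These means were not scaled, and totals there were 5501088 to 9136354 counts, against 17919826 to 28430678 in the matrix. Mcm3 and Rrm2 had means of 0.0 there, against 752.0 and 924.7 in the matrix, and Lig1 had 4226.2, against 446.0. Which source is right was not tested, and all results rest on the matrix. The submitters' processing notes name mm10, featureCounts 2.0.1 and HISAT2 2.2.1; annotation release, counting options and strand are not given in these sources. Groups follow the genotype in the labels. Names, coordinates and lengths come from GENCODE M21, which matched 21632 genes, and shared exonic bases from bedtools 2.31.1. In R 4.3.3, filterByExpr of edgeR 4.0.16 (minimum count 10, minimum total 15) kept 15518 genes. Genotypes were compared with edgeR's quasi-likelihood test (TMM scaling, robust dispersions), adjusted over all genes tested by Benjamini-Hochberg; the SE is the size of the log2 fold change over the root of its F statistic. The script was tested on simulated data. The members and lists were chosen with earlier results of these data known. Library values are given for the 2 largest changes and the smallest in each role, for each member not called or lower, and for ratio genes; of the other lists, the 2 largest rises and the largest falls, up to 2, are named, and genes beyond these were named after their values were seen. A gene that this rule names among the nucleotide genes is not reported here. Alternatives were DESeq2 1.42.0, limma 3.58.1 (voom), other scalings, no filter, a test against 1.5-fold, the replicate block and each library left out.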

Additional observations from a re-analysis of the deposited data

How the results depend on the processing

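Of the 49 members, 46 kept their direction and their side of the threshold under all 12 alternatives other than the test against 1.5-fold, and 46 were higher in KO under every alternative. Scaling by total count alone raised the members' median to 1.33, against 1.15, and turned Orc2 to 0.02 (adjusted p = 0.837) and Orc3 to 0.08 (adjusted p = 0.222). With that scaling, edgeR's quasi-likelihood test no longer called Orc4, at -0.11 (adjusted p = 0.11). Leaving out each library gave members' medians of 1.12 to 1.21. Against 1.5-fold, 3394 genes were called, against 10353, and 36 members, 16 further replication factors, against 25, and 5 further nucleotide genes, against 18. Without genes that share over 10% of their exonic bases, an alternative chosen after seeing the data, 40 members were left, 39 of them called, with a median of 1.12. Besides Orc2, Gins2, Fen1 and Chaf1a, those left out were Orc1, Mcm7, Rfc2, Rfc4 and Rfc5. These share 10.7% to 15.1% of their exonic bases with other genes, the most with a gene on the other strand. For Rfc4 and Rfc5 that gene was far more abundant (Eif4a2, 288 CPM in KO and 343 CPM in WT, and Wsb2, 213 and 247 CPM). Besides the single libraries named in the report, the call of Orc2 was lost with DESeq2 (adjusted p = 0.0628), and that of Asf1a with DESeq2 (0.0673) and total count scaling (0.536).

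No pairing by the replicate numbers in the labels was seen. Deviations of same-numbered KO and WT libraries correlated across genes at -0.025 to -0.001, and 0 of 6 libraries correlated best with the library of its own number. With 3 libraries in each group, these correlations cannot exclude that libraries were paired. With the replicate block, 10209 genes and 47 members were called, and Orc2 had an adjusted p of 0.0526.

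Among the members, counts limit the precision most for Orc1, Gins1 and Fen1, which held fewer than 100 counts in some or all libraries and had the largest SE (0.23, 0.22 and 0.26). Other members also held fewer than 100 counts in some library, among them Mcm10 (lowest count 32), Cdc6 (43), Gins2 (48) and Pole (86). Reads of genes on opposite strands cannot be told apart where counting ignores strand.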
